A study of Mus musculus with 6 samples.

Results

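Prdm1, Irf4, Bcl6, Irf8, Ell2, Igj, Sdc1 and Slamf7 mark or steer the choice of an activated B cell between the plasma cell fate and the germinal centre fate. They were taken as the rows of the deposited count table with these 8 gene symbols, among 37620 genes, and the 8 genes had 1 row each. Total RNA was measured in splenic B cells of C57Bl/6 mice aged 4 months, kept in culture with IL-4 (12.5 µg/ml) and anti-CD40 (1 µg/ml). The cells were infected after 24 and 48 h with the retroviral vector pMIR-Sox2 (3 libraries) or with the control vector pMIR (3 libraries), and sorted after 96 h by mCherry. Both groups thus had the same stimulation, infection and sort, and they differed in the transcription factor Sox2 that the retrovirus carries.

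Blimp-1, the protein of Prdm1, is the repressor that drives plasma cell differentiation, and it works with Irf4, which B cells raise on activation and raise further as they become plasma cells. Bcl6 is the repressor that holds the germinal centre state, and it represses Prdm1. Irf8, a relative of Irf4, is associated with the germinal centre side of this balance. Ell2 and Igj belong to the antibody-secreting programme, and Sdc1 and Slamf7 encode surface proteins used to recognise plasma cells.

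The libraries held 17153805 to 20770447 gene counts in pMIR-Sox2 and 21421769 to 27692437 in pMIR. Sox2 was read at 624 to 989 CPM (counts scaled to the effective library size) in pMIR-Sox2 and at 0.334 to 1.78 CPM in pMIR, with the lowest pMIR-Sox2 value in replicate 3. Of 7 B cell markers, 6 were lower in pMIR-Sox2 at the threshold used below, and their summed level ran from 5805 to 8489 CPM in pMIR-Sox2 and from 11571 to 13709 CPM in pMIR. The T cell marker Cd3e had 0 counts in pMIR-Sox2 and 0 to 1 per library in pMIR. The summed T cell markers stayed within 1.89 to 4.46 CPM in pMIR-Sox2 and 1.53 to 2.54 CPM in pMIR. Cd5 made up most of this sum, with 2.95 CPM on average in pMIR-Sox2 and 1.63 CPM in pMIR, and did not pass the threshold. Summed myeloid markers were 29.8 to 36.5 CPM in pMIR-Sox2 and 18.4 to 21.8 CPM in pMIR, of which Emr1 made up most, while S100a8 and S100a9 were at 0 in the 6 libraries. Of the tested markers, 3 of 4 myeloid ones were higher, 2 of 3 dendritic cell ones lower and 1 of 2 NK cell ones higher. The last was Klrd1, with 78, 147 and 53 counts in pMIR-Sox2 and 1, 1 and 0 in pMIR, while the NK cell marker Ncr1 was at 0 in the 6 libraries. Of the myeloid markers that rose, Lyz2 had 17, 10 and 11 counts in pMIR-Sox2 and 1, 0 and 1 in pMIR. Klrd1 and Lyz2 thus passed the filter on low counts only through their pMIR-Sox2 libraries. The size of their folds rests on few reads. Among erythroid markers Hba-a1, Hbb-b1 and Slc4a1 were at 0 in the 6 libraries. Summed dendritic cell markers were 11.99 to 15.3 CPM in pMIR-Sox2 and 33.3 to 43.4 CPM in pMIR, and summed NK cell markers 5.74 to 10.2 CPM in pMIR-Sox2 and 2.62 to 2.99 CPM in pMIR. Over all genes tested, 20.0% were lower and 23.2% higher. For these marker lists, their part in the results below was not tested.

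Promoter windows from RefSeq (build GRCm38.p6, 250 bases before to 50 after a start site) were found for the 8 genes, 10 windows in all. The windows of Irf4 and Igj are shown because these genes fell furthest, that of Prdm1 because it was the gene that rose, and the second of Bcl6 because it alone matched the patterns of B cell factors searched. Capitals mark matches on either strand to the 9 letter patterns AACAATG and AACAAAG (SOX), the ETS-IRF composite, the interferon response element, AGNGAAAG (Blimp-1), TTCCTNGAA (Bcl6), TATAAA (the core promoter box), ATGCAAAT (octamer) and CCAAT. The ETS-IRF, interferon response and Blimp-1 patterns share GAAA and can overlap each other.
Irf4, chr13:30748983-30749282, plus strand: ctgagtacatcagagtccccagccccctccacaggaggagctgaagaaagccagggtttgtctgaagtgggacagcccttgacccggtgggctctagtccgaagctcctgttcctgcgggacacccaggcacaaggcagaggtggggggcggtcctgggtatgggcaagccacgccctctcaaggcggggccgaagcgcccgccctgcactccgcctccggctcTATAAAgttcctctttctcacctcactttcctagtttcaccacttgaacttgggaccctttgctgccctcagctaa
Igj (named Jchain in RefSeq), chr5:88527848-88528147, minus strand: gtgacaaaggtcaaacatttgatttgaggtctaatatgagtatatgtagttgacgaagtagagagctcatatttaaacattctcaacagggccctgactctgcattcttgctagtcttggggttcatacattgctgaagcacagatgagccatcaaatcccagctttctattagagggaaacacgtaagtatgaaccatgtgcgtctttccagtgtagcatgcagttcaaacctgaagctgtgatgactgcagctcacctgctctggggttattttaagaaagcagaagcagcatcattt
Prdm1, chr10:44458699-44458998, minus strand: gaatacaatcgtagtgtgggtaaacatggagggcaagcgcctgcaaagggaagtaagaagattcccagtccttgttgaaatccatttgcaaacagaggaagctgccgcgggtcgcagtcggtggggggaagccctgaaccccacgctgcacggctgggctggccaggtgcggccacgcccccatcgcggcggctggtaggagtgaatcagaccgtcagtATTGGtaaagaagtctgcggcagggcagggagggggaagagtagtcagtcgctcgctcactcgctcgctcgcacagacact
Bcl6, second window, chr16:23981234-23981533, minus strand: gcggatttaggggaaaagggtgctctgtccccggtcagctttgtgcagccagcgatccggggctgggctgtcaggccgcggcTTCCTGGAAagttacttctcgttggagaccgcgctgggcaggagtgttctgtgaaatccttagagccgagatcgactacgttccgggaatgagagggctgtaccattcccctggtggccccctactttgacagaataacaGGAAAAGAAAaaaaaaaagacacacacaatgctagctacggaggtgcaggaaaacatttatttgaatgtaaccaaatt
Neither SOX pattern occurred in the 10 windows, and they occurred in 3.78% (AACAATG) and 5.85% (AACAAAG) of all 32851 windows. At such low shares, 10 windows are too few to show a lack of SOX patterns. The second Bcl6 window held the ETS-IRF pattern, present in 2.72% of all windows, 28 bases before the start, and the Bcl6 pattern, present in 1.59%, 168 bases before it. A TATAAA, present in 13.6% of windows, lay 26 bases before the start of Irf4 and 31 before that of Irf8. CCAAT, on the opposite strand 31 bases before the start of Prdm1, occurred in 37.4% of windows, and the windows of Igj and Slamf7 matched none of the patterns. These matches are descriptions of letters, and the data hold no binding measurement.

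Setting pMIR-Sox2 against pMIR addresses how these regulators stood in activated B cells given Sox2. Irf4, Igj, Slamf7, Ell2 and Irf8 fell, Prdm1 rose, and Bcl6 and Sdc1 did not pass the test. The 8 genes passed the filter on low counts, so 5 of 8 fell and 1 of 8 rose by edgeR's quasi-likelihood test at an adjusted p under 0.05 over all genes. Over the 12898 genes tested, Sox2 left out, 20.0% fell and 23.2% rose, and 43.2% passed in either direction. In 7 of the 8 genes the groups had no overlap between their libraries, 6 lower in pMIR-Sox2 and 1 higher. Of all genes tested, 56.5% had no overlap, 27.6% lower and 28.9% higher. The median log2 fold change was −0.72 over the 8 genes and −0.02 over all genes tested. In bulk RNA, fewer cells of a type and less RNA per cell cannot be told apart.

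**Figure D1:**
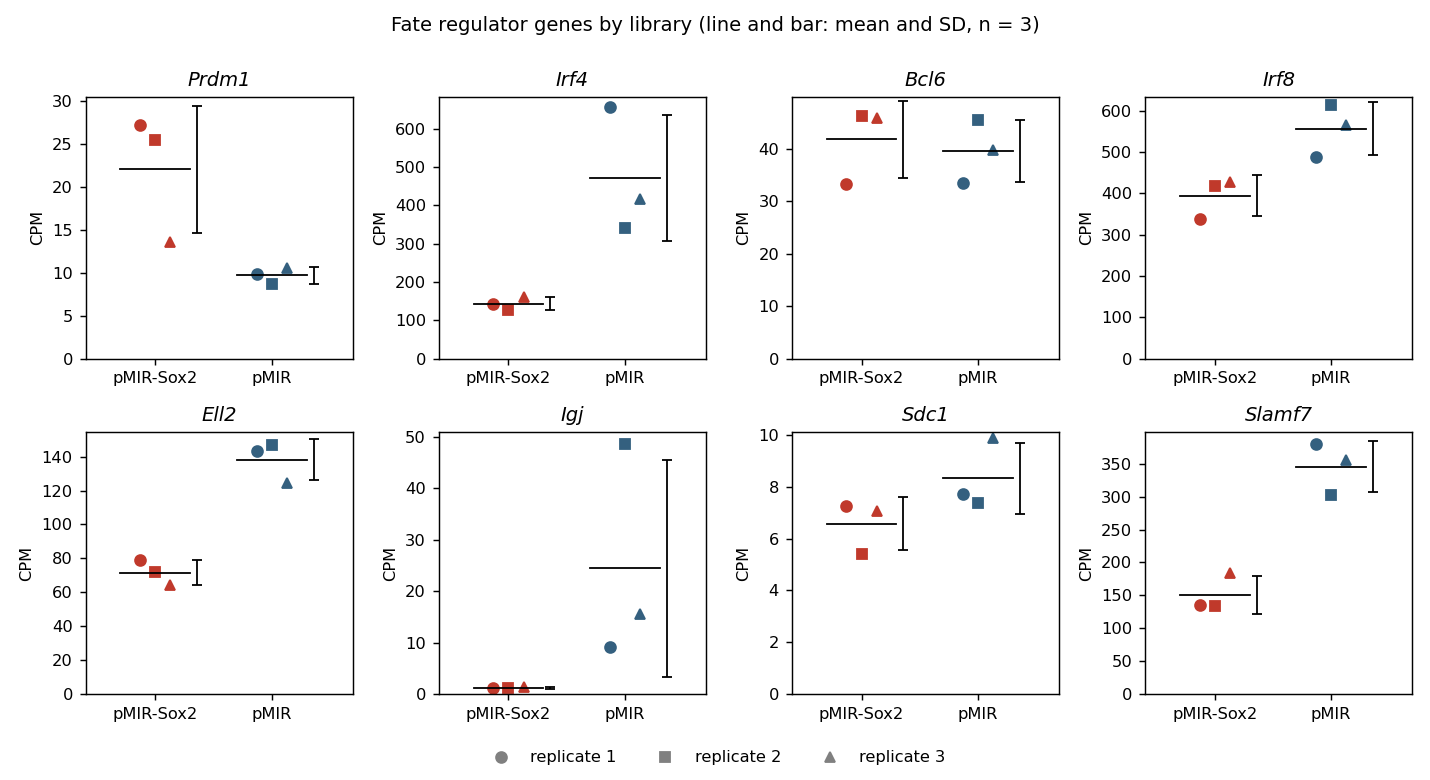
CPM of the 8 genes in each library (y axis, starting at 0), pMIR-Sox2 left and pMIR right, with marker shape for the replicate and the mean and SD beside the points. Only the Bcl6 libraries of the groups overlap, Igj spans 9.22 to 48.6 CPM within pMIR, and Prdm1 of pMIR-Sox2 replicate 3 lies nearest to pMIR.

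Prdm1 encodes Blimp-1. It had 27.2, 25.5 and 13.6 CPM in pMIR-Sox2 replicates 1 to 3, against 9.85, 8.67 and 10.6 CPM in pMIR replicates 1 to 3. The 3 pMIR-Sox2 libraries lay above the 3 pMIR libraries, and replicate 3, the one with least Sox2, was the lowest of the 3. Whether the level of Prdm1 follows that of Sox2 was not tested. The gene rose by 1.19 ± 0.24 on the log2 scale (SE, 95% interval 0.65 to 1.73, adjusted p = 0.00397), a 2.28-fold difference. Without pMIR-Sox2 replicate 3 the log2 fold change was 1.45. Per kb of exon its level was below those of Irf8, Slamf7, Irf4, Ell2 and Bcl6 in either group.

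Irf4 rises with B cell receptor and CD40 signals and is needed for class switching as well as for plasma cells. It had 143, 126 and 160 CPM in pMIR-Sox2, against 658, 341 and 417 CPM in pMIR. Each pMIR-Sox2 library was below the lowest pMIR library, and the pMIR values were spread over 1.93-fold, with replicate 1 on top. The log2 fold change was −1.72 ± 0.23 (SE, 95% interval −2.24 to −1.21, adjusted p = 0.000494), a level 3.30-fold lower. It ran from −1.92 to −1.41 when each library was left out in turn.

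Bcl6 had 33.4, 46.3 and 45.9 CPM in pMIR-Sox2, against 33.6, 45.6 and 39.8 CPM in pMIR. The groups overlapped, and in either group replicate 1 was the lowest library. The log2 fold change was 0.08 ± 0.16 with a 95% interval of −0.28 to 0.43 (adjusted p = 0.709), so the interval holds differences of either sign up to that size. It was −0.03 without pMIR replicate 1.

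Irf8 had 337, 418 and 428 CPM in pMIR-Sox2, against 489, 615 and 566 CPM in pMIR. The pMIR-Sox2 libraries were the lower ones without overlap, and replicate 1 was again lowest in either group. The gene fell by 0.50 on the log2 scale (SE 0.13, 95% interval −0.80 to −0.20, adjusted p = 0.0150), a level 1.41-fold lower. The call ended without pMIR replicate 2 (adjusted p = 0.0511) and without pMIR replicate 3 (adjusted p = 0.0531), with log2 fold changes of −0.43 and −0.49.

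**Figure D2:**
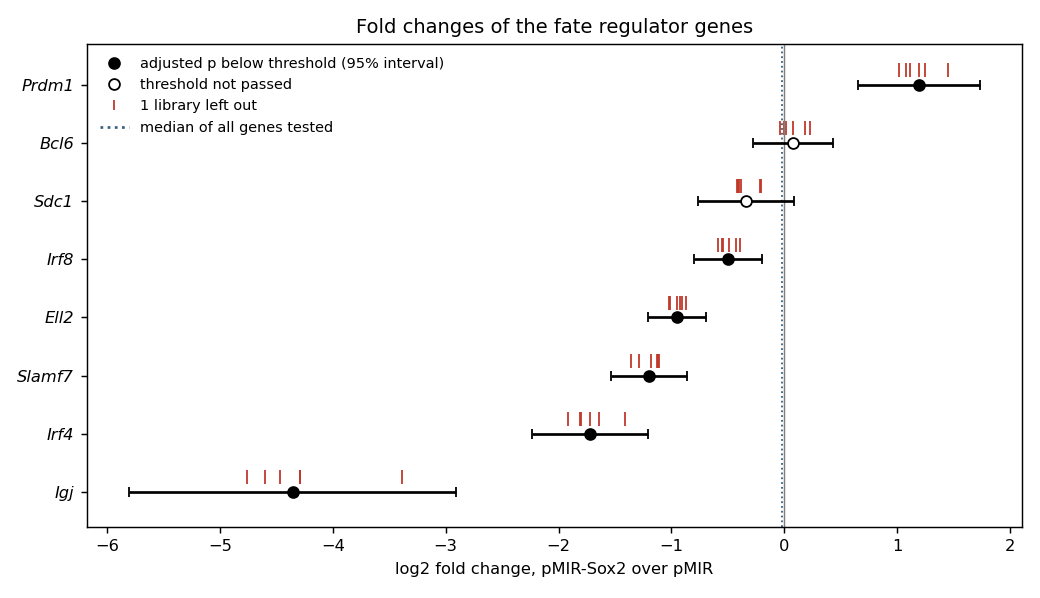
Log2 fold change of pMIR-Sox2 over pMIR (x axis) with its 95% interval for each of the 8 genes (y axis). Red ticks give the value with 1 library left out, and the dotted line the median of all genes tested, −0.02. Prdm1 lies right of 0, and for Igj the tick nearest to 0 is the value without pMIR replicate 2.

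Ratios of counts within a library do not depend on how libraries are scaled, and they set genes with opposed roles against each other. The Prdm1 to Bcl6 ratio was 0.816, 0.550 and 0.297 in pMIR-Sox2, against 0.293, 0.190 and 0.266 in pMIR. The pMIR-Sox2 libraries were higher, but replicate 3 exceeded the highest pMIR library by little. The mean log2 ratio was −0.97 ± 0.74 in pMIR-Sox2 and −2.03 ± 0.33 in pMIR (SD, n = 3 each), and the difference ran from 0.72 to 1.45 with 1 library left out.

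The Irf4 to Irf8 ratio was 0.424, 0.300 and 0.373 in pMIR-Sox2, against 1.34, 0.554 and 0.736 in pMIR. In the 6 libraries only pMIR replicate 1 had more Irf4 than Irf8 counts, and the pMIR-Sox2 libraries lay lower without overlap. These counts are not corrected for exon length. Per kb of exon, Irf4 was above Irf8 in pMIR replicate 3 as well (85.0 against 80.2 CPM per kb). On the log2 scale the mean ratio was −1.46 ± 0.25 in pMIR-Sox2 and −0.29 ± 0.65 in pMIR. Irf4 to Bcl6 was also lower, at 4.28, 2.71 and 3.48 in pMIR-Sox2, against 19.6, 7.48 and 10.5 in pMIR.

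Pax5 and Bach2 are B cell identity factors that oppose the plasma cell programme. Bach2 represses Prdm1, and Pax5 is itself repressed by Blimp-1. Pax5 had 334, 424 and 282 CPM in pMIR-Sox2, against 169, 197 and 195 CPM in pMIR, and rose by 0.89 (SE 0.15, adjusted p = 0.00166). Bach2 had 111, 120 and 102 CPM in pMIR-Sox2, against 81.0, 80.4 and 72.8 CPM in pMIR, and rose by 0.51 (SE 0.10, adjusted p = 0.00355). These rises stood beside that of Prdm1, and the ratios of Prdm1 to them overlapped between the groups. Prdm1 to Pax5 was 0.0815, 0.0601 and 0.0483 in pMIR-Sox2 and 0.0583, 0.0440 and 0.0543 in pMIR. Prdm1 to Bach2 was 0.245, 0.212 and 0.133 in pMIR-Sox2 and 0.122, 0.108 and 0.145 in pMIR.

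**Figure D3:**
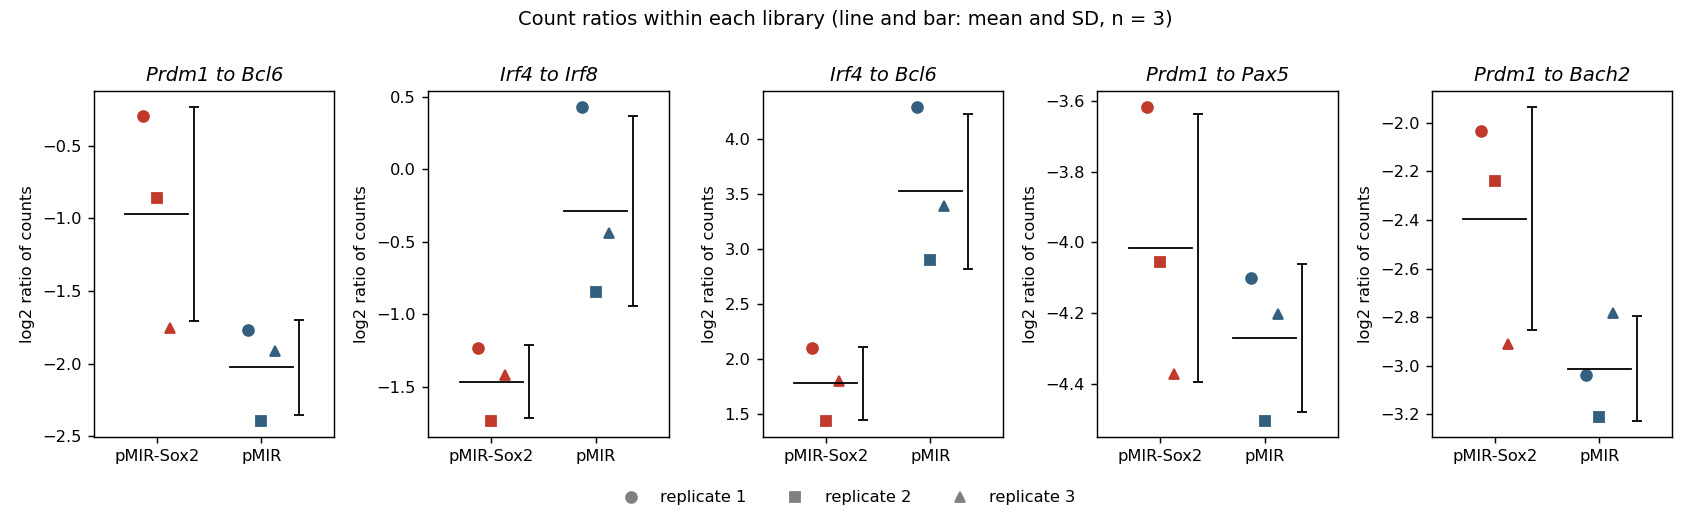
Log2 ratio of counts between pairs of genes (y axis, a scale of its own in each panel) in each library, pMIR-Sox2 left and pMIR right, with the mean and SD of 3 libraries. Prdm1 to Bcl6 is higher and both Irf4 ratios are lower in pMIR-Sox2 without overlap, and the 2 right panels overlap.

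Ell2 is a transcription elongation factor that in plasma cells favours the secreted form of the heavy chain transcript. It had 78.8, 71.8 and 64.3 CPM in pMIR-Sox2, against 143, 147 and 124 CPM in pMIR. The groups were well apart and the libraries close within each, with a spread of 1.23-fold in pMIR-Sox2 and 1.18-fold in pMIR. The log2 fold change was −0.95 ± 0.11 (SE, 95% interval −1.20 to −0.69, adjusted p = 0.000273), a level 1.93-fold lower. In the reference annotation the exons of Ell2 share 94 bases with an antisense gene and 130 with a small nucleolar RNA, and the strand setting of the counts is not given in the sources used here.

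Igj encodes the joining chain that links secreted IgM into pentamers and IgA into dimers. It had 1.10, 1.08 and 1.39 CPM in pMIR-Sox2, from 20 to 24 counts per library, against 9.22, 48.6 and 15.7 CPM in pMIR. The pMIR-Sox2 libraries were alike and the pMIR libraries were spread over 5.27-fold, with replicate 2 far above the others. The log2 fold change was −4.36 ± 0.64 (SE, 95% interval −5.80 to −2.91, adjusted p = 0.000834), a level 20.5-fold lower, and it was −3.38 without pMIR replicate 2 (adjusted p = 0.000107). Of the 8 genes it had the largest change and the widest interval.

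Sdc1 encodes syndecan-1, the CD138 antigen of plasma cells. It had 7.26, 5.41 and 7.07 CPM in pMIR-Sox2, against 7.71, 7.39 and 9.89 CPM in pMIR. The libraries did not overlap, yet the gap between pMIR-Sox2 replicate 1 and pMIR replicate 2 was under the spread within either group. The log2 fold change was −0.34 ± 0.19 with a 95% interval of −0.76 to 0.09 (adjusted p = 0.180).

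Slamf7 encodes a SLAM family receptor of plasma cells and activated lymphocytes. It had 136, 133 and 184 CPM in pMIR-Sox2, against 379, 302 and 356 CPM in pMIR. The groups did not overlap, and pMIR-Sox2 replicate 3 was the nearest to pMIR, as it was for Prdm1, Irf4, Irf8 and Igj. For Ell2 and Sdc1 the nearest was pMIR-Sox2 replicate 1. Replicate 3 was also nearest over all genes tested, so this is not particular to these genes. Its log2 CPM correlated with the pMIR libraries at 0.950 to 0.957, against 0.927 to 0.932 for replicate 1 and 0.915 to 0.919 for replicate 2. The log2 fold change was −1.20 ± 0.15 (SE, 95% interval −1.54 to −0.86, adjusted p = 0.000346), a level 2.29-fold lower. Its exons share 423 bases with an antisense gene in the reference annotation.

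Per kb of exon, the levels of different genes can be set side by side. In pMIR-Sox2 the order of mean levels was Irf8 (55.9 CPM per kb), Slamf7 (33.0), Irf4 (29.1), Ell2 (7.29), Bcl6 (6.25), Prdm1 (3.96), Sdc1 (1.73) and Igj (0.473). In pMIR it was Irf4 (96.2 CPM per kb), Irf8 (78.9), Slamf7 (75.5), Ell2 (14.1), Igj (9.73), Bcl6 (5.92), Sdc1 (2.19) and Prdm1 (1.74). Irf4 thus stood behind Irf8 and Slamf7 in pMIR-Sox2 and on top in pMIR, where the libraries of Irf4, Irf8 and Slamf7 overlapped. Igj was last in pMIR-Sox2 without overlap with its neighbour Sdc1, while in pMIR it overlapped with Ell2 above and Bcl6 below. In pMIR-Sox2 the neighbours Slamf7 and Irf4, and Ell2 and Bcl6, also overlapped.

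**Figure D4:**
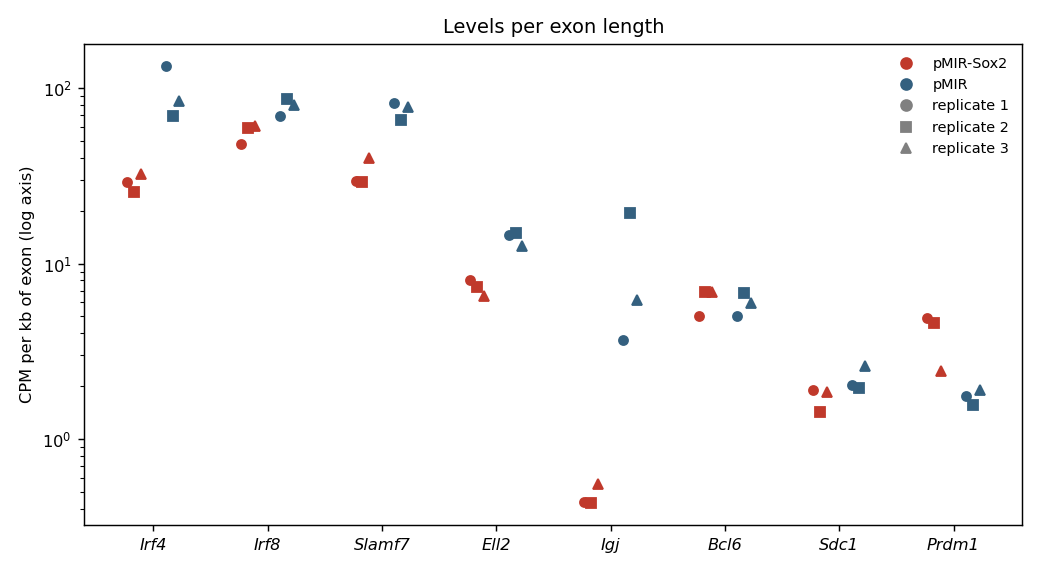
CPM per kb of exon (log y axis) of the 8 genes in each library, in the order of their mean in pMIR, pMIR-Sox2 left of pMIR for each gene. Igj ranges from 0.430 to 0.553 in pMIR-Sox2 and from 3.66 to 19.3 in pMIR.

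Within a group the genes did not follow a common order of libraries. In pMIR, replicate 1 had the most Irf4 and Slamf7 and the least Irf8, Bcl6 and Igj, whereas replicate 2 had the least Irf4, Slamf7, Prdm1 and Sdc1 and the most Irf8, Bcl6, Ell2 and Igj. In pMIR-Sox2, replicate 1 had the most Prdm1, Ell2 and Sdc1 and the least Bcl6 and Irf8. These are single libraries, given as values.

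The genes most like each member over the 6 libraries were found by Pearson correlation of log2 CPM among 9829 genes, as a description in which differences between groups and between libraries both enter. For Prdm1 they were Armcx4 (r = 0.998), Rnf14 (0.998) and Lrsam1 (0.994), and for Irf4 Mrpl55, Atpaf2 and Rwdd4a (0.996 to 0.997). For Irf8 they were Crlf2, Cnn3 and H2-M3 (0.992 to 0.996), for Bcl6 Spcs2, Acot13 and Ccni (0.977 to 0.981), and for Sdc1 Tbcc, Slc35b4 and Pigt (0.972 to 0.985). For Slamf7 they were Hspa2, Gars and Zbtb46 (0.999 to 1.000), and for Ell2 Rab20, Sema6d and Cdc42bpb (0.995 to 1.000). For Igj they were 1810055G02Rik, Tmc6 and Uhrf1bp1l (0.992 to 0.998), which changed less, with log2 fold changes of −0.42, −0.84 and −0.31 beside −4.36 for Igj. Armcx4 changed by 1.03 and thus by nearly as much as Prdm1.

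Each count of a gene list in this and the later paragraphs stands beside 20.0% lower and 23.2% higher over all genes tested. Some genes, such as Irf7, are counted in several lists. Partners of Irf4 and Irf8 on DNA, chiefly AP-1 and ETS factors, were lower in 6 of 10 tested members, higher in 1 and did not pass in 3, with a median log2 fold change of −0.44. Batf3, which pairs with Jun proteins, averaged 0.269 ± 0.120 CPM in pMIR-Sox2 and 6.55 ± 2.29 CPM in pMIR (SD, n = 3 each, log2 fold change −4.62, adjusted p = 5.63e-05). It had only 4, 4 and 7 counts in pMIR-Sox2, against 241, 135 and 90 in pMIR. Batf3 thus passed the filter through its pMIR libraries, and the size of its fold rests on few reads. Junb averaged 240 ± 29.6 CPM in pMIR-Sox2 and 672 ± 70.1 CPM in pMIR (−1.48), Batf 63.6 ± 5.80 and 136 ± 13.7 CPM in the same order of groups (−1.09), and Jund fell by 0.78. The gene that rose, Jun (0.68, adjusted p = 0.0172), named after its values were seen, was not called without pMIR replicate 1 or without pMIR replicate 2.

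Other Irf genes rose in 3 of 7, fell in 1 and did not pass in 3, with a median of 0.10. Irf7, a mediator of the interferon response, averaged 52.1 ± 15.2 CPM in pMIR-Sox2 and 20.1 ± 3.45 CPM in pMIR (1.38, adjusted p = 0.00128). Irf5 fell (−0.63). Irf1 (0.31) lost its call on leaving out replicate 1 or 2 of pMIR-Sox2 or of pMIR (adjusted p = 0.0571, 0.0897, 0.110 and 0.130). Of 8 other Prdm genes, 1 rose and 7 did not pass. It was Prdm2, a histone methyltransferase gene, with 193 ± 38.0 CPM in pMIR-Sox2 and 93.8 ± 7.50 CPM in pMIR (1.04, adjusted p = 0.000636), and 2 rose without pMIR-Sox2 replicate 3.

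Corepressors of Bcl6 rose in 3 of 13 tested members, fell in 2 and did not pass in 8, with a median of 0.11. Over all genes tested, 23.2% rose and 20.0% fell, so these counts are near the shares of all genes. Rnf2, a Polycomb ubiquitin ligase, averaged 150 ± 17.5 CPM in pMIR-Sox2 and 76.2 ± 0.851 CPM in pMIR (0.98, adjusted p = 0.000163), and Tbl1xr1 rose by 0.85. Kdm2b (−0.52) fell, and it was not called without pMIR replicate 1 (adjusted p = 0.0612). With the replicate number as a block, 4 fell.

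Genes that Bcl6 is known to repress rose in 3 of 18 tested members, fell in 5 and did not pass in 10, with a median of −0.40. Bcl2, a survival gene, averaged 37.8 ± 3.15 CPM in pMIR-Sox2 and 87.2 ± 0.969 CPM in pMIR (−1.20, adjusted p = 4.48e-05). Gpr183, a receptor that guides B cells out of the follicle centre, averaged 88.7 ± 40.5 CPM in pMIR-Sox2 and 248 ± 33.9 CPM in pMIR (−1.48), and its adjusted p was 0.0595 with no filter on low counts. Nfkb1 fell by 0.48, and Irf7, also in this list, rose. The falls numbered 3 without pMIR replicate 1, 3 with no filter and 9 with the replicate block, and the rises 1 without pMIR-Sox2 replicate 2.

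Of 6 genes that Blimp-1 is known to repress, 1 (Pax5) rose and 5 fell, with a median of −1.01, beside 23.2% higher and 20.0% lower over all genes tested. Myc averaged 209 ± 33.9 CPM in pMIR-Sox2 and 414 ± 87.2 CPM in pMIR (−0.98, adjusted p = 0.00194). Ciita, the master regulator of MHC class II genes, averaged 61.2 ± 38.4 CPM in pMIR-Sox2 and 234 ± 16.9 CPM in pMIR (−1.94, adjusted p = 0.00282). Its call ended with no filter (adjusted p = 0.0613), where 3 of the 6 genes fell, and its log2 fold change was −2.56 without pMIR-Sox2 replicate 3.

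**Figure D5:**
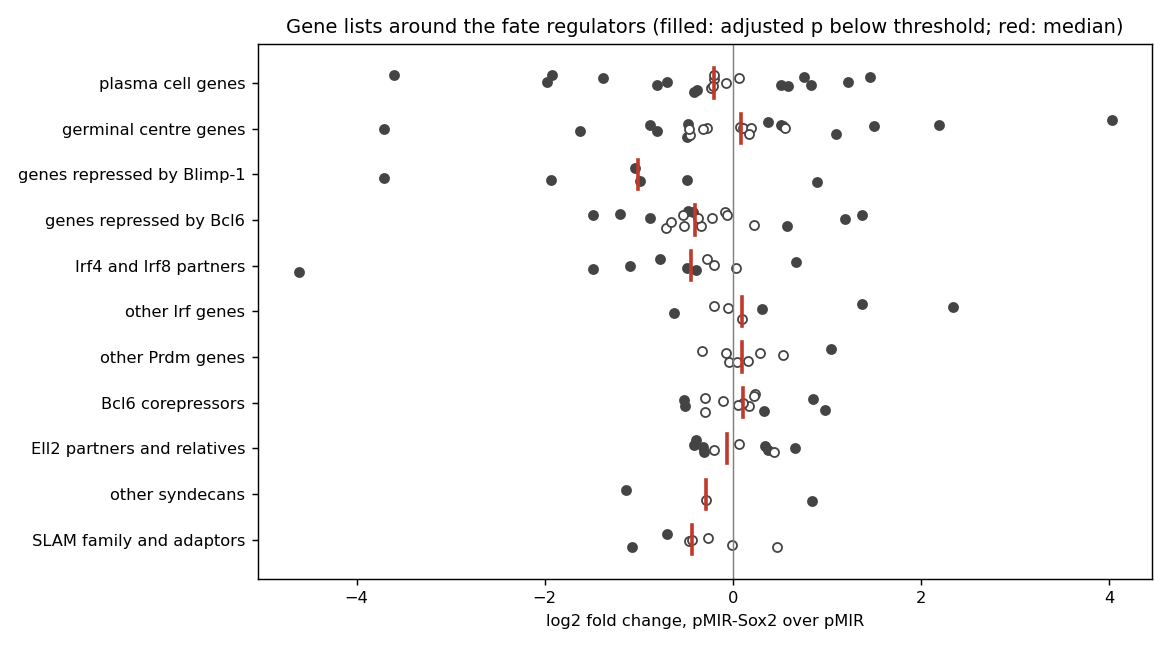
Log2 fold change of pMIR-Sox2 over pMIR (x axis) of the tested genes of each list (rows), filled where the adjusted p was under 0.05, with the list's median as a red bar. The medians lie between −1.01 (genes repressed by Blimp-1) and 0.11 (Bcl6 corepressors), and genes lie on both sides of 0 in each of the 11 lists.

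Among other plasma cell genes, chiefly of secretion, 6 of 20 tested members were higher, 8 lower and 6 not past the threshold, with a median of −0.21. Derl3, of the degradation pathway of the endoplasmic reticulum, averaged 4.47 ± 1.28 CPM in pMIR-Sox2 and 17.5 ± 1.20 CPM in pMIR (−1.98, adjusted p = 0.000122). Ccr10, a homing receptor of plasma cells, was at 0.125 ± 0.0434 CPM in pMIR-Sox2 and 1.55 ± 0.198 CPM in pMIR (−3.60). It had only 2, 2 and 3 counts in pMIR-Sox2, against 38, 31 and 37 in pMIR. Ccr10 thus passed the filter through its pMIR libraries, and the size of its fold rests on few reads. Creld2 fell by 0.81. Epcam, an adhesion molecule, rose, with 24.4 ± 3.45 CPM in pMIR-Sox2 and 8.86 ± 1.23 CPM in pMIR (1.46, adjusted p = 0.000154). Tnfrsf17, the BCMA receptor of plasma cells, named after its values were seen, had 0 counts in each pMIR-Sox2 library and 2, 3 and 2 counts in pMIR, and was not tested. The falls numbered 5 without pMIR replicate 2.

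Xbp1, counted in this list, is the transcription factor that expands the secretory apparatus, and it had 316, 418 and 314 CPM in pMIR-Sox2, against 409, 540 and 450 CPM in pMIR. The groups overlapped, and replicate 2 was the highest library in either. Within the 3 pairs of same-numbered libraries the pMIR-Sox2 library was the lower one, and with the replicate block the log2 fold change was −0.42 (adjusted p = 0.00199). Without the block, its log2 fold change of −0.42 ± 0.15 stood at the threshold (adjusted p = 0.04997), and the call ended with library totals only (0.0948), with DESeq2's size factors (0.0552), and without any 1 library other than pMIR-Sox2 replicate 2, with adjusted p from 0.0511 to 0.157.

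Among other germinal centre genes, 7 of 22 tested members were higher, 6 lower and 9 not past the threshold, with a median of 0.09, and 10 fell with the replicate block. The shares over all genes tested were 23.2% higher and 20.0% lower. Rgs13, counted as higher and named after its values were seen, had 24, 15 and 20 counts in pMIR-Sox2, against 4, 4 and 7 in pMIR. It thus passed the filter through its pMIR-Sox2 libraries, and the size of its fold rests on few reads. Ezh2, the Polycomb methyltransferase that germinal centre B cells need, averaged 814 ± 56.0 CPM in pMIR-Sox2 and 288 ± 18.4 CPM in pMIR (1.501, adjusted p = 2.88e-05). Pou2af1, a coactivator of octamer-binding factors, averaged 1032 ± 62.5 CPM in pMIR-Sox2 and 1896 ± 218 CPM in pMIR (−0.88), and Basp1 fell by 1.62. Gcet2, a germinal centre marker named after its values were seen, had 29.9, 93.5 and 21.3 CPM in pMIR-Sox2, against 1.14, 6.62 and 1.30 CPM in pMIR (4.03 ± 0.75, adjusted p = 0.00284). Replicate 2 was its highest library in either group. Mef2b was at 0 in the 6 libraries.

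Of the partners and relatives of Ell2 in transcription elongation, 3 were higher, 4 lower and 3 not past the threshold among 10 tested, with a median of −0.07. Aff4, the scaffold of the super elongation complex, averaged 213 ± 38.2 CPM in pMIR-Sox2 and 135 ± 17.1 CPM in pMIR (0.66, adjusted p = 0.00663). Cdk9, the kinase of the complex, averaged 93.5 ± 3.75 CPM in pMIR-Sox2 and 122 ± 3.03 CPM in pMIR (−0.39, adjusted p = 0.00725). Aff1 (0.37) was not called without pMIR-Sox2 replicate 1 or without any 1 pMIR library (adjusted p from 0.0505 to 0.0997). Mllt1 (−0.41) was not called with library totals only or without pMIR-Sox2 replicate 2, pMIR replicate 1 or pMIR replicate 3 (0.0638 to 0.0961). The rises numbered 1 without pMIR-Sox2 replicate 1 and without pMIR replicates 1 or 3. The falls numbered 1 with library totals only and without pMIR-Sox2 replicate 2 or pMIR replicates 1 or 3, and 2 without pMIR replicate 2 or with no filter.

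The syndecan list held other syndecan genes and Sdcbp, which encodes the syndecan-binding protein syntenin and is not itself a syndecan. Of its 3 tested genes, Sdc4 fell, with 141 ± 37.6 CPM in pMIR-Sox2 and 311 ± 37.5 CPM in pMIR (−1.14, adjusted p = 0.00119). Sdcbp rose, with 164 ± 12.6 CPM in pMIR-Sox2 and 91.1 ± 7.71 CPM in pMIR (0.84, adjusted p = 0.000347). The syndecan gene Sdc3 did not pass, and the median of the 3 was −0.29. Of 7 other SLAM family members and adaptors tested, 2 fell and 5 did not pass, with a median of −0.43. Cd48 averaged 114 ± 27.0 CPM in pMIR-Sox2 and 240 ± 10.3 CPM in pMIR (−1.07, adjusted p = 0.000727). Ly9 (−0.70) was not called without pMIR-Sox2 replicate 1 or 2 or without pMIR replicate 3 (adjusted p = 0.0688, 0.0543 and 0.0631). In this list 1 gene rose with the replicate block and 1 with no filter.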

How the data were processed

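Total RNA sequencing covered 3 pMIR-Sox2 and 3 pMIR libraries, grouped by the sample titles. The authors deposited unnormalised counts by Ensembl gene ID. The submitters' processing notes name build mm9 and HTSeq 0.6.1p1, SAMtools 0.1.19, Bowtie2 2.2.2, TopHat2 2.0.11 and Trimmomatic 0.32, with no role given. Closing lines that name no gene were left out, and the genes held 51.9 to 53.2% of the table's total.

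Genes were filtered with filterByExpr, scaled by TMM and tested with edgeR 4.0.16 (R 4.3.3, robust quasi-likelihood, Benjamini-Hochberg over 12899 genes). SE is the log2 fold change over the square root of F. Sox2 was left out of counts of genes. Alternatives were DESeq2 1.42.0, limma-voom (limma 3.58.1), other scalings, no filter, a replicate block and leaving out each library. Exon lengths, gene names and overlaps come from GENCODE M21 (GRCm38), another build, and promoters from RefSeq by symbol.

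The members and lists were chosen with earlier results of these data known. Named genes are the members, Sox2, Xbp1, Pax5, Bach2, up to 4 per list with the smallest adjusted p, and the 3 most alike per member with a mean of at least 5 CPM. Some genes that the rule also named are not reported here. Same-numbered libraries, which share a number (8, 9 or 12) in their descriptions, deviated together from their group means (correlation 0.242, 0.359 and 0.189 over genes). The numbers were taken as pairs only in the replicate block and in the pairs given for Xbp1. The main test, which gave the p-values and calls unless the block is named, did not use the pairing. Whether replicates came from separate mice is not given in the labels, and p-values cover the spread among these libraries, which may be technical. An exact permutation of 3 against 3 cannot go below 0.1, so none is given.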

Additional observations from a re-analysis of the deposited data

How the results depend on the processing

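Of the 8 genes, 1 rose and 5 fell under each of the alternatives run, except that 4 fell without pMIR replicate 2 and without pMIR replicate 3, where Irf8 was lost. With 1 library left out, the log2 fold change ran from −0.59 to −0.39 for Irf8 and from −0.033 to 0.23 for Bcl6, which was −0.033 without pMIR replicate 1. The replicate block ended no call among the 8 genes (1 rose and 5 fell), and over all genes it called 3486 higher and 3314 lower, against 2990 and 2577 without it. Counts over the gene lists moved by over 1.5 times in 26 of 264 cases, most of them given with their list. The cause of these changes was not tested. Igj had 20 to 24 counts per pMIR-Sox2 library, and its libraries spread over 1.29-fold in pMIR-Sox2 and 5.27-fold in pMIR.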
